A study of Mus musculus with 6 samples.

Results

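The contractile genes of mural cells, the smooth muscle cells and pericytes that wrap blood vessels, are described here in single cells of mouse hearts. The set holds 10 genes, Acta2, Tagln, Cnn1, Myh11, Myl9, Mylk, Tpm2, Lmod1, Smtn and Des, taken by symbol from the 31055 genes of the deposited count matrix, and all 10 were found. Hearts of C57BL/6 mice aged 3 to 6 months were digested with collagenase, and EGFP-positive cells of the fraction without myocytes went to 10x Genomics single-cell RNA sequencing. The Dsp_het group (3 libraries) carried Wt1CreERT2, Rosa26mTmG and DspW/F, and the control group (3 libraries) carried Wt1CreERT2 and Rosa26mTmG without the floxed Dsp allele. Both groups therefore share the Cre and the reporter. Cre is driven by Wt1, a gene of the epicardium, and EGFP marks cells in which Cre has acted and their descendants. Nothing in the labels ties a library to a single animal or to a pool, and p-values therefore measure the spread between these libraries only.

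Smooth muscle shortens when a calcium signal activates myosin light-chain kinase, which phosphorylates the regulatory light chain of smooth muscle myosin and lets it pull on actin filaments. Many genes of this apparatus are switched on together by serum response factor and its partner myocardin, through a short A- and T-rich sequence called the CArG box. Fibroblasts that turn on the actin part of this set, above all Acta2, are called myofibroblasts and are known from scars and fibrotic hearts, while quiescent cardiac fibroblasts express little of it. Pericytes of capillaries are known to hold less of the contractile proteins than arterial smooth muscle cells.

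Of 18283 barcode entries, 16338 passed a filter of at least 500 UMIs (unique molecular identifiers, each standing for 1 captured RNA molecule), at least 200 genes and at most 20% mitochondrial UMIs. Barcodes were shared between libraries: 13183 distinct barcodes accounted for the 18283 entries, 1689 of them occurred in several libraries and 530 in all 6. Each barcode was counted only in the library with most of its UMIs, and the other entries (copies) were left out, which left 12661 cells. The libraries held 2967, 1775 and 1066 used cells in Dsp_het hearts and 2444, 1586 and 2823 in control hearts, with median depths between 3491.5 and 6491.5 UMIs per cell. Copies were 16.8%, 36.8% and 28.8% of the passing barcodes in Dsp_het libraries and 22.1%, 13.0% and 19.1% in control libraries, with a median of 667 UMIs, and results that rest on them are given with and without them. Xist, the RNA of the inactive X chromosome, was high in 1 library of each group, Dsp_het replicate 2 and control replicate 3. Dsp, counted in the epicardial-like cells, stood at 7.17, 7.25 and 9.44 CPM (UMIs of the gene per 1e6 UMIs of the cells summed) in Dsp_het libraries and 12.04, 19.95 and 17.4 CPM in control libraries. These values rest on 35 UMIs in Dsp_het and 29 in control libraries, and the difference missed the threshold (log2 fold change -1.02, SE 0.37, edgeR quasi-likelihood adjusted p = 0.999). Whether the counted end of the Dsp transcript lies in the floxed part was not examined.

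Clustering without the 10 genes gave 19 clusters, named from marker genes that exclude them. The classes were endothelial-like (10188 cells), fibroblast-like (1221), epicardial-like (601, the mesothelial cells), macrophage-like (219), pericyte-like (200), cardiomyocyte-like (173) and cycling (59). The pericyte-like cluster was led by Kcnj8, Vtn, Rgs5, Ndufa4l2 and Higd1b. No cluster was smooth-muscle-like, at either of 2 clustering resolutions or when the 10 genes took part in the clustering. The pericyte-like cluster held 13 of 18 smooth muscle markers at 0.25 or more of their highest cluster level, but none among its 10 leading genes, and Actg2 had no UMI there. The 10 contractile genes were left out of the markers and of the leading genes in every clustering, so they could not name a cluster. Its cells also carried endothelial RNA: the summed level of 15 endothelial markers was 18188 to 25618 CPM in Dsp_het libraries and 20504 to 22427 CPM in control libraries, against 34287 to 40988 CPM in endothelial-like cells of the 6 libraries. Markers of another class were found in 32.5% of pericyte-like cells, 15.97% of epicardial-like cells, 11.1% of fibroblast-like cells and 2.77% of endothelial-like cells.

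Pericyte-like cells were few. The Dsp_het libraries held 8, 9 and 24 of them (0.27%, 0.507% and 2.25% of cells), and the control libraries 18, 33 and 108 (0.736%, 2.08% and 3.83%). The share was 1.01 ± 1.08% in Dsp_het libraries and 2.21 ± 1.55% in control libraries (SD, n = 3 each), a difference within the spread (two-sided exact permutation p = 0.3, smallest possible 0.1). With copies counted, the libraries held 37, 48 and 46 pericyte-like barcodes in Dsp_het hearts and 53, 51 and 130 in control hearts.

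All 10 genes are protein-coding in the GENCODE vM21 annotation of GRCm38, the build named in the submitters' processing notes. Acta2 lies at chr19:34241090-34255590 on the minus strand and Tagln at chr9:45929619-45936058, minus. Cnn1 lies at chr9:22099216-22109630, plus. Myh11 lies at chr16:14194535-14291372, minus, and Mylk on the same chromosome at chr16:34745210-35002420, plus. Myl9 lies at chr2:156775420-156781658, plus, and Tpm2 at chr4:43514711-43523765, minus. Des lies at chr1:75360329-75368579 and Lmod1 at chr1:135324807-135368065, both plus. Smtn lies at chr11:3517523-3540612, minus. Exons of Tagln, Mylk, Des and Smtn overlap exons of genes on the opposite strand (for Tagln, 1241 bases with the antisense transcript Gm48529 and 108 bases with Pcsk7). The strand setting of the authors' counting is not given in the sources used here, so reads of these overlaps cannot be assigned to a strand.

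The RefSeq promoter table (GRCm38.p6) held 8 of the 10 genes, all but Tagln and Myh11. The 250 bases before each start were searched on both strands for the CArG box, CC, then 6 bases of A or T, then GG, and for CArG-like sequences with 1 of those 6 bases replaced by C or G. The box occurred in Myl9 and CArG-like sequences in Acta2 and Myl9, and neither in the other 6 promoters. Over all 32851 promoters of the table, 1.47% held a CArG box and 8.59% a box or a CArG-like sequence. A match is a description of these letters and not a measured binding site. Tpm2, Mylk and Lmod1, whose promoters held no match, were also highest in pericyte-like cells, as Acta2 and Myl9 were. The search covered only 250 bases before a start and 8 of the 10 genes, so no relation of match and level can be judged from it. The matches found are shown with the box or CArG-like sequence in capitals, 5′ to 3′ on the strand of the gene. The Acta2 stretches span bases -94 to -65 (chr19:34255438-34255467, minus) and -44 to -15 (chr19:34255388-34255417, minus) from the RefSeq start, and lie within the first exon of the GENCODE model, which starts further upstream. The Myl9 stretch spans bases -181 to -70 (chr2:156775283-156775394, plus), with the box at -161 and the CArG-like sequence at -99.
Acta2 site 1: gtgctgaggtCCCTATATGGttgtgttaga
Acta2 site 2: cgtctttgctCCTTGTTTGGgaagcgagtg
Myl9: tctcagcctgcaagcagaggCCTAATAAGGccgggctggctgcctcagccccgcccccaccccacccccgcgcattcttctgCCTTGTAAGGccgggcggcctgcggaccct

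Levels across cell classes are CPM of the UMIs summed over the cells of a class in each library. They are a description without a test, since the classes come from the same cells. Pericyte-like cells were 1.58% of cells and held 2.57% of UMIs.

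Acta2 encodes the smooth muscle alpha-actin of the thin filament. It averaged 435 ± 268 CPM in pericyte-like cells, 45.4 ± 53.6 in epicardial-like cells, 20.8 ± 31.3 in fibroblast-like cells, 9.87 ± 8.63 in cardiomyocyte-like cells and 1.52 ± 1.47 in endothelial-like cells (SD, n = 6 libraries). The pericyte-like mean was the highest, and the SDs of the next 3 classes overlapped. The library values were not fully apart: in Dsp_het replicate 1 the 8 pericyte-like cells had no Acta2 UMI, while its epicardial-like cells stood at 117 CPM. Pericyte-like cells held 830 of the 1386 Acta2 UMIs (59.9%), epicardial-like cells 313, fibroblast-like cells 162 and endothelial-like cells 67. Pooled over libraries, the pericyte-like level was 317 times the endothelial-like level.

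Tagln, which encodes the actin-binding protein transgelin (SM22), had the same order of means. It averaged 314 ± 194 CPM in pericyte-like cells, 38.3 ± 37.4 in epicardial-like cells, 24.2 ± 30.02 in fibroblast-like cells and 2.95 ± 2.10 in endothelial-like cells. Its epicardial-like and fibroblast-like levels overlapped within their SDs, and the lowest pericyte-like library (26.7 CPM) lay below the highest epicardial-like one (114 CPM). Cnn1 encodes calponin, an actin-binding inhibitor of the myosin ATPase and a marker of differentiated smooth muscle. It was nearly absent: 8 UMIs were counted in all, 6 of them in a single cell of the fibroblast-like class, and none in pericyte-like cells.

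Myh11 encodes the smooth muscle myosin heavy chain, and was the gene with the largest share of its UMIs in pericyte-like cells, 228 of 296 (77.0%). It averaged 111 ± 72.5 CPM there, against 3.20 ± 6.31 in fibroblast-like cells, 2.27 ± 3.48 in epicardial-like cells and 0.967 ± 0.625 in endothelial-like cells. These 3 lower levels overlapped one another, and no UMI fell in cardiomyocyte-like, macrophage-like or cycling cells. Myl9, the regulatory light chain, averaged 205 ± 80.8 CPM in pericyte-like cells and 52.9 ± 18.4 in fibroblast-like cells, apart from both endothelial-like cells at 3.23 ± 1.53 and epicardial-like cells at 2.92 ± 2.10. Fibroblast-like cells, being more numerous, held most of its UMIs, 593 of 1124. Mylk encodes the myosin light-chain kinase, and its gene also makes a long form found in endothelium. It averaged 217 ± 45.6 CPM in pericyte-like cells, 45.0 ± 10.9 in endothelial-like cells, 28.5 ± 20.4 in epicardial-like cells and 4.04 ± 2.92 in fibroblast-like cells. Endothelial-like cells held 73.4% of all Mylk UMIs, and fibroblast-like cells were the lowest of the 7 classes.

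Tpm2 encodes a tropomyosin that runs along actin filaments. Its level in pericyte-like cells was the steadiest of the set, 451 ± 73.0 CPM, against 61.2 ± 15.5 in fibroblast-like cells, 45.9 ± 21.5 in epicardial-like cells and 5.04 ± 2.32 in endothelial-like cells. A Tpm2 UMI was found in 73.0% of pericyte-like cells, while an Acta2 UMI was found in 40 of the 200 cells, a Tagln UMI in 16.5% and a Myh11 UMI in 14.5%. Lmod1 encodes leiomodin, which starts new actin filaments in smooth muscle. It averaged 26.3 ± 21.4 CPM in pericyte-like cells and 4.45 ± 7.56 in fibroblast-like cells, and a single UMI fell in epicardial-like cells and 2 in endothelial-like cells. Smtn, which encodes smoothelin, a cytoskeletal protein of contractile smooth muscle, did not follow the others. It averaged 89.3 ± 52.7 CPM in cycling cells, 79.2 ± 19.01 in pericyte-like cells, 57.3 ± 3.91 in endothelial-like cells, 52.7 ± 14.3 in epicardial-like cells and 29.4 ± 6.23 in fibroblast-like cells, and the first 4 of these levels overlapped within their SDs. Endothelial-like cells held 75.6% of Smtn UMIs.

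Des encodes desmin, the intermediate filament protein of all muscle types, which desmoplakin anchors to desmosomes in cardiac myocytes. Its level was 159 ± 159 CPM in cardiomyocyte-like cells and 153 ± 148 CPM in pericyte-like cells, with no separation between them. It stood at 19.9 ± 19.2 CPM in epicardial-like cells, 7.24 ± 2.31 in fibroblast-like cells and 5.05 ± 2.73 in endothelial-like cells.

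**Figure D1:**
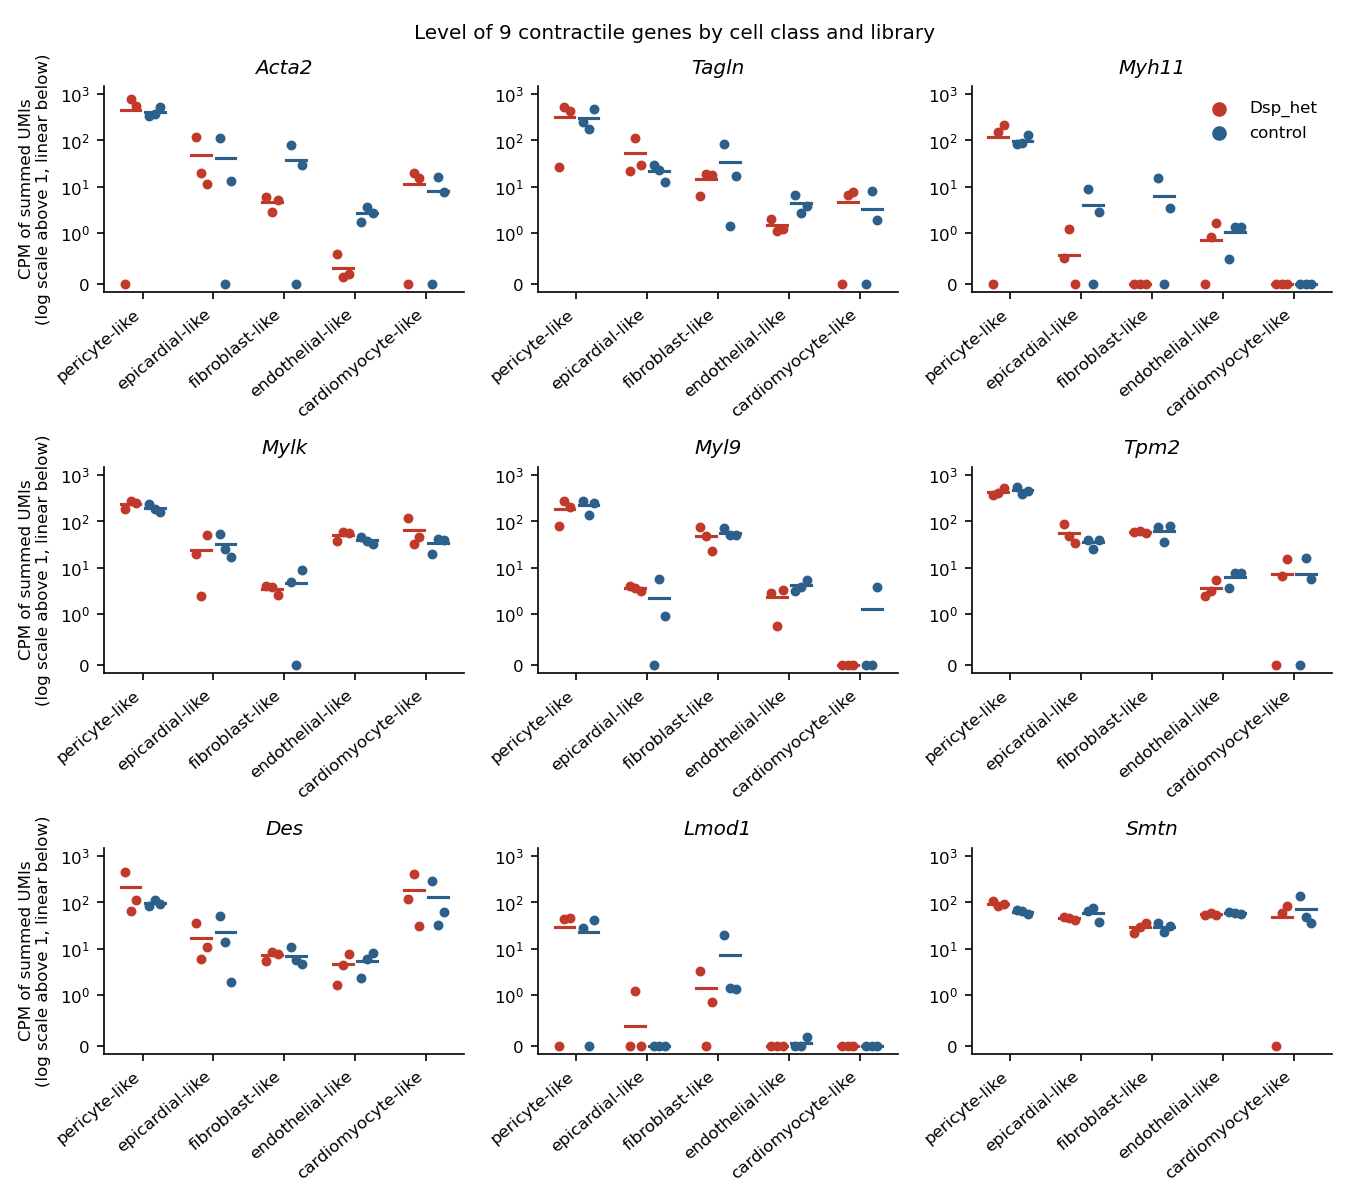
CPM of 9 contractile genes (y axis, log scale above 1) in 5 cell classes (x axis), with a point per library, Dsp_het left of control, and a line at the mean of each group. Acta2, Tagln, Myh11 and Lmod1 are highest in pericyte-like cells, where Dsp_het replicate 1 is the lowest point of the first 3, Mylk and Smtn are spread over most classes, and Myl9 stands second highest in fibroblast-like cells.

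By cluster, the summary over 19 clusters separated the genes into those bound to the pericyte-like cluster and those shared more widely. The correlation of a gene's log CPM over clusters with the mean of the other members was 0.94 for Acta2, 0.91 for Tagln, 0.90 for Myh11 and Lmod1 and 0.86 for Tpm2. It was 0.64 for Myl9, 0.58 for Des, 0.51 for Mylk, 0.09 for Smtn and 0.06 for Cnn1, as a description over clusters that share libraries. Outside the pericyte-like cluster, an endothelial-like cluster led by the arterial genes Sema3g and Gja4 held Acta2 at 23.4 CPM (34 UMIs in 14 cells), Tagln at 33.0 CPM and Myh11 at 13.1 CPM. This cluster carried 34 of the 67 Acta2 UMIs of endothelial-like cells. An endothelial-like cluster led by Vwf held Tagln at 12.2 CPM, on 54 UMIs in 10 of 619 cells, with 2 Acta2 UMIs and no Myh11 UMI. A fibroblast-like cluster of 70 cells led by Ccl11 and Igfbp3, 59 of them from Dsp_het replicate 1, held Myl9 at 93.1 CPM with no UMI of Acta2, Tagln or Myh11.

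**Figure D2:**
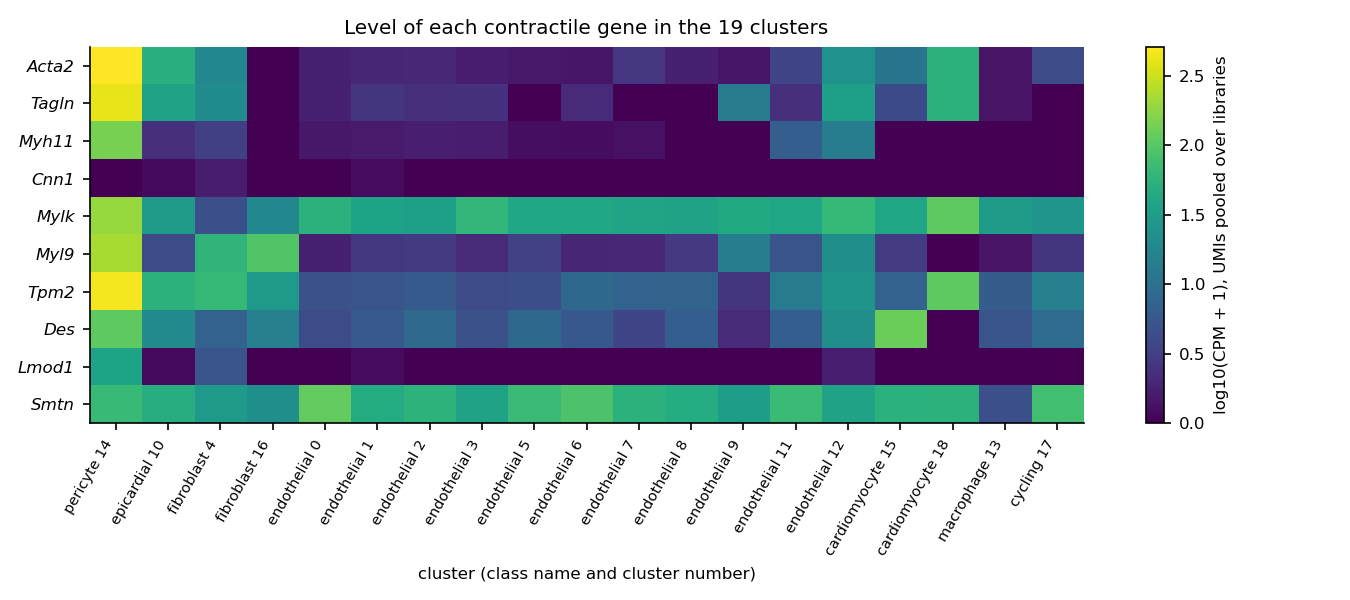
Pooled level of each of the 10 genes (rows) in the 19 clusters (columns, named by class and number), as log10 of CPM plus 1 in colour. The pericyte-like column is bright for every gene but Cnn1, the Mylk and Smtn rows are bright across the endothelial-like columns, and the Cnn1 row is dark throughout.

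Over the same 19 clusters, 7825 genes were compared with the mean profile of the set. The most alike outside the set were Cspg4 (r = 0.92), Olfr558 (0.92), Serpini1 (0.91), Rgs4 (0.91), Notch3 (0.91), Itga7 (0.91), Colec11 (0.91) and Ednra (0.91), each highest in the pericyte-like cluster. Cspg4 encodes the NG2 proteoglycan, Notch3 the Notch receptor of mural cells and Ednra the endothelin receptor of vascular smooth muscle. Cspg4, Notch3, Rgs4 and Colec11 were also among the markers used to name that cluster.

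The contractile RNA sat in very few cells. Of 12661 cells, 8 were enough to hold 50% of all Acta2 UMIs, 7 for Tagln, 3 for Myh11 and 6 for Lmod1. For Tpm2, Myl9 and Des the same share took 128, 96 and 83 cells, and for Mylk and Smtn 505 and 845. At least 10 UMIs of Acta2, Tagln and Myh11 together were found in 36 cells: 16 of 200 pericyte-like, 12 of 601 epicardial-like, 4 of 1221 fibroblast-like and 4 of 10188 endothelial-like cells. By library, the pericyte-like ones were 0 of 8, 1 of 9 and 3 of 24 cells in Dsp_het libraries. In control libraries they were 1 of 18, 2 of 33 and 9 of 108 cells. The epicardial-like ones were 6 of 242, 3 of 78 and 2 of 94 cells in Dsp_het libraries. In control libraries these were 1 of 46, 0 of 48 and 0 of 93 cells. Cells are not replicates of a genotype.

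**Figure D3:**
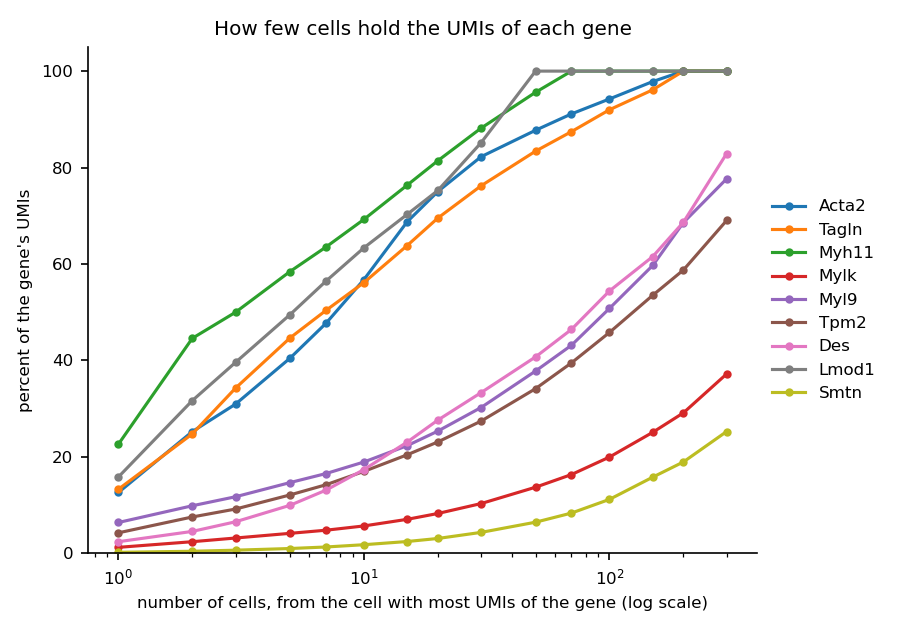
Cumulative percent of each gene's UMIs (y axis) against the number of cells taken from the one with most UMIs downwards (x axis, log scale). The 10 richest cells hold 69.3% of Myh11, 63.4% of Lmod1, 56.8% of Acta2 and 56.2% of Tagln UMIs, and the Mylk and Smtn curves lie lowest.

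The richest cell of the Dsp_het libraries was a pericyte-like cell of replicate 3 with 51161 UMIs, 175 of them from Acta2, 139 from Tagln and 67 from Myh11. A pericyte-like cell of control replicate 3 with 34418 UMIs had 175 Acta2, 161 Tagln and 65 Myh11 UMIs. Both cells also carried pericyte markers (221 UMIs of Rgs5, Kcnj8, Vtn, Abcc9 and Pdgfrb in the Dsp_het cell and 76 in the control cell) and endothelial markers (110 UMIs of Pecam1, Cdh5, Kdr and Egfl7 in the Dsp_het cell and 74 in the control cell). Within the pericyte-like class, the 135 cells without markers of another class held Acta2 at 235 CPM, Tagln at 122, Myh11 at 42.7 and Tpm2 at 363. The 65 cells with such markers, of greater median depth (9110 against 3267 UMIs), held 692, 610, 205 and 541 CPM. The 62 pericyte-like cells with no UMI of Pecam1, Cdh5, Kdr or Egfl7 still held Acta2 at 134 CPM, Tagln at 117, Myh11 at 67.1 and Tpm2 at 716. The part of mixed droplets in these levels was not tested.

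Cells rich in Acta2 differed between classes in what came with it. Among pericyte-like cells with at least 3 Acta2 UMIs (24 cells), a Tpm2 UMI was found in 100%, Myl9 in 91.7%, Tagln in 83.3% and Myh11 in 70.8%. Among such epicardial-like cells (17 cells), Tpm2 was found in 82.4%, Tagln in 41.2%, Myl9 in 23.5% and Myh11 in 5.88%. Myh11 made up 21.6% of the summed Myh11 and Acta2 UMIs in pericyte-like cells (95% Clopper-Pearson interval 19.1 to 24.2%) and 2.49% in epicardial-like cells (1.08 to 4.85%). In endothelial-like cells the share was 36.8% (27.6 to 46.7%), and in fibroblast-like cells 11.5% (7.25 to 17.0%), or 5.26% without its richest cell. These intervals cover counting error only, and the UMIs of a cell are not independent. The ratio in epicardial-like cells was below that of pericyte-like cells also without the richest cell of each class, 2.94% against 19.9%. The epicardial-like cell with most Acta2 UMIs, of Dsp_het replicate 1, had 60 of them, none of Tagln or Myh11, and 215 UMIs of the mesothelial markers Upk3b, Msln and Krt19.

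**Figure D4:**
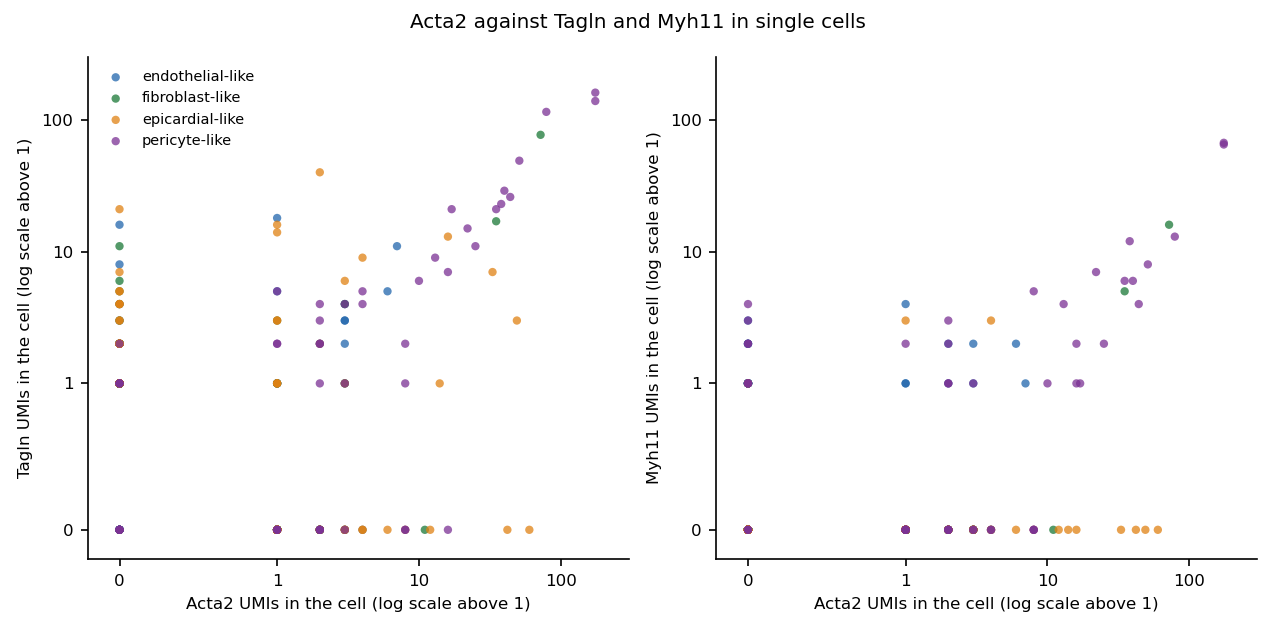
UMIs of Tagln (left) and Myh11 (right) on the y axis against UMIs of Acta2 on the x axis, a point per cell, coloured by class, on log scales above 1. Pericyte-like cells run along the diagonal to 175 Acta2 UMIs in both panels, while epicardial-like cells with up to 60 Acta2 UMIs lie near the bottom of the Myh11 panel.

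Genotype was compared within each class by edgeR's quasi-likelihood test on UMIs summed per library, with Benjamini-Hochberg adjustment over all genes tested. In pericyte-like cells no difference of a contractile gene between Dsp_het and control hearts passed the test. Acta2 stood at 0, 795 and 567 CPM in Dsp_het libraries (0, 37 and 222 UMIs) and 344, 370 and 532 CPM in control libraries (25, 72 and 474 UMIs). Dsp_het replicate 1 had the lowest value and the other Dsp_het libraries the highest, so the groups overlapped, and with 37497 UMIs in 8 cells a count of 0 there allows up to 80.0 CPM. With copies counted, the values were 361, 698 and 578 CPM in Dsp_het libraries and 605, 402 and 545 CPM in control libraries. Tagln stood at 26.7, 515 and 432 CPM in Dsp_het libraries and 248, 180 and 482 CPM in control libraries. Myh11 stood at 0, 150 and 215 CPM in Dsp_het libraries and 82.7, 87.4 and 128 CPM in control libraries. Both overlapped between groups, with Dsp_het replicate 1 lowest.

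Since 2 Dsp_het libraries held fewer than 20 pericyte-like cells, the planned fit had 1 Dsp_het and 2 control libraries, and a fit of all 6, with at least 5 cells each, was added after the cells had been counted. Of 2438 genes tested in the 6 libraries none passed (0.0%), 124 had an unadjusted p under 0.05, and the fit of 3 libraries called 44 of 6723 (0.654%). In the fit of 6, the log2 fold change was 0.21 for Acta2 (SE 0.44, 95% interval -0.71 to 1.12), 0.16 for Tagln (SE 0.42) and 0.64 for Myh11 (SE 0.37, interval -0.13 to 1.42). It was -0.00 for Tpm2 (SE 0.25, interval -0.53 to 0.52), -0.16 for Myl9, 0.44 for Mylk and 0.65 for Des, with adjusted p of at least 0.969 throughout. Smtn was the only gene of the set without overlap, at 107, 85.9 and 92.0 CPM in Dsp_het libraries and 68.9, 66.8 and 55.0 CPM in control libraries. Its log2 fold change was 0.63 (SE 0.36, adjusted p = 0.969), and 4.1% of the genes tested were higher in Dsp_het libraries without overlap. In the fit of 3 libraries Myh11 had a log2 fold change of 0.83 (SE 0.30, adjusted p = 0.235), and without the richest cell of the class, a control cell, 1.65 (SE 0.32, adjusted p = 7.09e-05, in a fit that called 0.713% of genes). The call thus turned on 1 cell and on a single Dsp_het library. The fit of 3 held Dsp_het replicate 3 and control replicates 2 and 3, of which only control replicate 3 was high in Xist. Xist had a log2 fold change of -10.3 there. With 1 Dsp_het library, genotype cannot be told apart from other differences between these libraries. Lmod1 (0, 43.0 and 46.0 CPM in Dsp_het libraries, 27.6, 0 and 41.6 CPM in control libraries) and Cnn1 were too low to be tested in all 6. Of the further contraction genes, fixed as a list beside the set, 27 were tested (median 0.12, against 0.02 over all genes), led by Ppp1cb (0.75, SE 0.30) and Ppp1r14a (0.70, SE 0.36), a catalytic subunit and an inhibitor of myosin phosphatase. Of the regulators of smooth muscle genes 4 were tested (median 0.25), led by Klf4 (0.41, SE 0.25) and Heyl (0.43, SE 0.35), and of the myofibroblast genes 8 (median 0.03), led by Ctgf (-0.88, SE 0.41) and Postn (0.37, SE 0.33). None was called in the fit of 6 libraries.

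In fibroblast-like cells the comparison bears on whether fibroblasts take on the contractile genes of myofibroblasts. No contractile gene was called, in a fit that called 1 of 8539 genes (0.0117%). Myl9 stood at 74.4, 48.4 and 23.5 CPM in Dsp_het libraries and 71.0, 50.3 and 49.8 CPM in control libraries. Tpm2 stood at 57.8, 61.0 and 57.5 CPM in Dsp_het libraries and 74.9, 35.9 and 79.8 CPM in control libraries. The groups overlapped for both, and the log2 fold changes were -0.12 for Myl9 (SE 0.32, 95% interval -0.80 to 0.57) and -0.16 for Tpm2 (SE 0.22, interval -0.64 to 0.32). Smtn had a log2 fold change of -0.13 (SE 0.25).

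Acta2 in fibroblast-like cells stood at 5.98, 2.90 and 5.22 CPM in Dsp_het libraries (27, 3 and 6 UMIs) and 80.8, 0 and 30.02 CPM in control libraries (82, 0 and 44 UMIs). The Dsp_het values lay between the control values. It was below the low-count filter and was not tested, as were Myh11, Cnn1, Mylk, Des and Lmod1. Of the 82 Acta2 UMIs of control replicate 1, 72 came from a single cell with 3365 UMIs, which also held 77 Tagln, 16 Myh11, 8 Lmod1 and 6 Cnn1 UMIs, 11 UMIs of the other smooth muscle markers, 3 of fibroblast markers and none of pericyte or endothelial markers. Of the 44 UMIs of control replicate 3, 35 came from a cell with 82 pericyte and 203 fibroblast marker UMIs. Tagln stood at 6.42, 18.4 and 18.3 CPM in Dsp_het libraries and 83.8, 1.44 and 17.1 CPM in control libraries. Its log2 fold change was -1.52 (SE 0.70, 95% interval -3.03 to -0.01, edgeR adjusted p = 1.00), and 0.26 without the 1 cell of control replicate 1.

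Myh11 had no UMI in fibroblast-like cells of any Dsp_het library and 16, 0 and 5 UMIs in those of the control libraries. With a floor of 3 UMIs, counts of 0 allow up to 0.665, 2.90 and 2.61 CPM in the Dsp_het libraries. Control libraries stood at 15.8, 0 (up to 4.31) and 3.41 CPM, so the groups overlapped. All 21 control UMIs came from the 2 cells described above. With copies counted, Acta2 stood at 6.72, 7.28 and 4.92 CPM in Dsp_het libraries and 73.1, 0 and 28.96 CPM in control libraries, and Myh11 again had no UMI in Dsp_het libraries. Without the low-count filter, 89 genes were called (0.545% of 16331), among them Acta2 (log2 fold change -2.83, adjusted p = 3.22e-16), Tagln (-1.50, adjusted p = 9.4e-05) and Myh11 (-6.41, adjusted p = 0.000141). Without the same cell of control replicate 1, Acta2 stood at -1.54 (adjusted p = 0.0185) and Tagln at 0.30 in that unfiltered fit. That fit called 0.539% of genes and still held the cell of control replicate 3 described above. This cell had 35 of the 44 Acta2 UMIs of its library. Whether the Acta2 call holds without this cell too was not tested.

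The 3 lists of related genes held 1 call in fibroblast-like cells. Of 48 further genes of smooth muscle contraction 37 were tested, with none called and a median log2 fold change of -0.01, against -0.00 over all genes, and Synm (-0.72, SE 0.36) and Tgfb1i1 (-0.33, SE 0.18) had the smallest p. Of 15 genes of the serum response factor and myocardin circuit 11 were tested, with none called and a median of 0.17. Mef2c stood at -0.36 (SE 0.16). The smallest p belonged to Klf4, a transcription factor that represses smooth muscle genes, at 469, 358 and 625 CPM in Dsp_het libraries and 358, 188 and 222 CPM in control libraries (log2 fold change 0.91, SE 0.23, adjusted p = 0.537). The lowest Dsp_het and the highest control library both stood at 358 CPM. Of 33 myofibroblast genes 24 were tested, 17 with a positive and 7 with a negative fold change and a median of 0.15. The 1 gene called was among them. Cilp, a matrix protein gene of activated cardiac fibroblasts, rose to 90.2, 85.2 and 72.3 CPM in Dsp_het libraries, against 28.6, 23.0 and 25.9 CPM in control libraries (log2 fold change 1.68, SE 0.19, edgeR adjusted p = 0.00482). The Cilp call was lost, at a like size, when cells with markers of another class were left out (1.72, SE 0.28, adjusted p = 0.119). It was also lost without control replicate 1 (1.73, adjusted p = 0.0528), control replicate 2 (1.63, adjusted p = 0.0502) or control replicate 3 (1.68, adjusted p = 0.0846). Postn (0.04, SE 0.55) and Col1a1 (-0.06, SE 0.17), which encode periostin and a collagen I chain, were not called. Endothelial markers in the same cells summed to 769 to 888 CPM in Dsp_het libraries and 1491 to 1673 CPM in control libraries, with no overlap, and all 15 had a UMI in each group. Rgs5, a pericyte marker, had 26 UMIs in Dsp_het and 193 in control libraries (log2 fold change -3.53, adjusted p = 0.424). Their part in the differences above was not tested.

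In epicardial-like cells no gene was called of 8306 tested (0.0%), by edgeR or DESeq2, and 269 had an unadjusted p under 0.05. Acta2 stood at 117, 19.3 and 11.3 CPM in Dsp_het libraries and 111, 0 and 13.5 CPM in control libraries. Replicate 1 of either group was high and the rest low, so the groups overlapped (log2 fold change 0.67, SE 0.88, adjusted p = 0.999). In control replicate 1 a single cell held 33 of the 37 Acta2 UMIs, so its high value rests on that cell. In Dsp_het replicate 1 the richest cell held 60 of 228. Tagln stood at 22.0, 114 and 28.95 CPM in Dsp_het libraries and 30.1, 22.8 and 12.6 CPM in control libraries. Its log2 fold change was 1.41 (SE 0.61, 95% interval 0.11 to 2.71, adjusted p = 0.999), with Dsp_het replicate 2 far above the rest and 40 of its 94 UMIs in a single cell. Without the low-count filter it was called (1.43, adjusted p = 0.00324), in a fit that called 0.249% of genes. Tpm2 stood at 87.1, 48.4 and 34.6 CPM in Dsp_het libraries and 39.1, 25.7 and 40.6 CPM in control libraries (0.70, SE 0.34). Des (0.28, SE 0.78), Mylk (-0.04, SE 0.62) and Smtn (-0.22, SE 0.26) overlapped between groups as well. Of the further contraction genes 34 were tested with none called (median 0.08), led by Cnn2 (0.70, SE 0.26), a non-muscle calponin gene, and Hspb1 (0.46, SE 0.17), a small heat-shock protein gene. Of the regulators 10 were tested (median 0.21), led by Klf4 (0.64, SE 0.21) and Mef2c (-0.33, SE 0.20), and of the myofibroblast genes 16 (median 0.13), led by Col5a1 (0.70, SE 0.28) and Ctgf (-1.08, SE 0.45), all with an edgeR adjusted p of 0.999. Endothelial markers in these cells summed to 1524 to 2246 CPM in Dsp_het libraries and 2091 to 3196 CPM in control libraries, and 13 of the 14 tested had a negative fold change (median -0.60, none called). Their part in these values was not tested.

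In endothelial-like cells Acta2 and Tagln were lower in every Dsp_het library than in any control library, at very low levels, and neither difference passed the test. Acta2 stood at 0.585, 0.155 and 0.208 CPM in Dsp_het libraries (4, 1 and 1 UMIs) and 1.73, 3.73 and 2.68 CPM in control libraries (14, 19 and 28 UMIs). Tagln stood at 2.05, 1.08 and 1.25 CPM in Dsp_het libraries and 6.67, 2.75 and 3.93 CPM in control libraries. Among the genes tested, 3.93% were lower in Dsp_het libraries without overlap. The log2 fold changes were -2.95 for Acta2 (SE 0.57, 95% interval -4.19 to -1.70, adjusted p = 0.329, DESeq2 adjusted p = 0.104) and -1.60 for Tagln (SE 0.40, adjusted p = 0.696). Without the low-count filter both were called, with an adjusted p of 0.000415 for Acta2 and 0.00632 for Tagln, in a fit that called 165 of 17801 genes (0.927%). No gene of 11325 was called by edgeR (0.0%), 11 were by DESeq2, and 514 had an unadjusted p under 0.05. Over the alternatives, the Acta2 log2 fold change stayed between -3.78 and -2.60. With copies counted, Acta2 had 4, 1 and 1 UMIs in Dsp_het libraries and 14, 19 and 29 in control libraries.

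Part of these UMIs lay in the arterial cluster. It held 71, 48 and 33 cells in Dsp_het libraries (3.41%, 3.16% and 4.31% of endothelial-like cells) and 86, 70 and 84 cells in control libraries (3.94%, 5.21% and 3.66%). Its Acta2 UMIs numbered 0, 0 and 0 in Dsp_het libraries and 7, 19 and 8 in control libraries, and its Tagln UMIs 0, 0 and 3 in Dsp_het libraries and 13, 11 and 21 in control libraries. The cluster was singled out after its values were seen, and no test was made on it. In the Vwf-led cluster, 40 of 54 Tagln UMIs came from control replicate 1. Of the other contractile genes in endothelial-like cells, Tpm2 stood at a log2 fold change of -0.86 (SE 0.37), Myl9 at -0.93 (SE 0.44), Des at -0.35 (SE 0.52), Smtn at -0.10 (SE 0.10) and Mylk at 0.39 (SE 0.17), all with an adjusted p of 0.999. Pericyte markers in these cells summed to 178 to 336 CPM in Dsp_het libraries and 217 to 338 CPM in control libraries, which overlapped. Cardiomyocyte markers summed to 21.2 to 71.8 CPM in Dsp_het libraries and 30.4 to 157 CPM in control libraries, and all 11 that were tested had a negative fold change (median -1.24, none called). Their part in the Acta2 and Tagln values was not tested. Of the further contraction genes 38 were tested with none called (median 0.03), led by Ppp1r14a (0.89, SE 0.25) and Gucy1a1 (1.05, SE 0.37). Gucy1a1 encodes a subunit of the nitric oxide receptor. Of the regulators 10 were tested (median 0.16), led by Klf4 (0.32, SE 0.14) and Gata6 (0.33, SE 0.15), and of the myofibroblast genes 18 (median 0.01), led by Col5a2 (0.62, SE 0.27) and Meox1 (-0.27, SE 0.13), with none called.

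**Figure D5:**
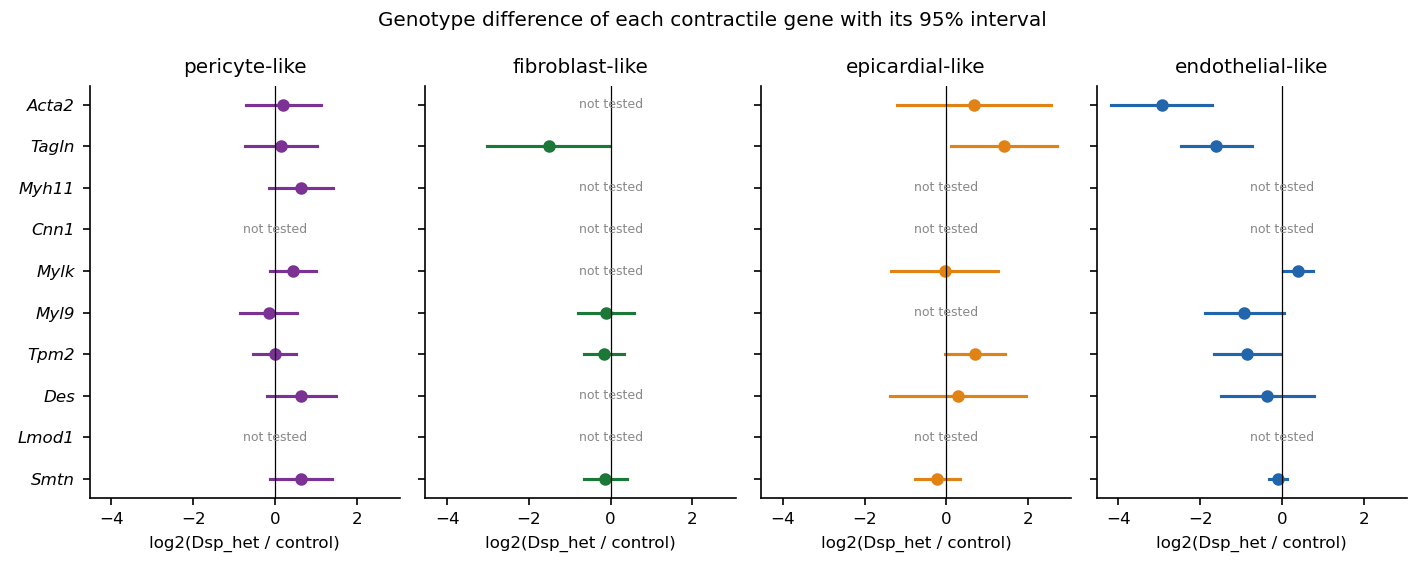
Log2 fold change of Dsp_het over control (x axis, with the 95% interval as a line) for each contractile gene (rows) in 4 cell classes, from edgeR fits of 6 libraries each. In endothelial-like cells the intervals of Acta2, Tagln and Tpm2 lie below 0 and that of Mylk above 0, the Tagln interval lies below 0 in fibroblast-like and above 0 in epicardial-like cells, and all other intervals cross 0. No gene shown passed an adjusted p of 0.05.

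Summed over all cells, Acta2 stood at 19.4, 6.81 and 28.4 CPM in Dsp_het libraries and 15.4, 13.6 and 37.0 CPM in control libraries, and Tagln at 6.50, 16.5 and 27.5 CPM in Dsp_het libraries and 16.4, 8.53 and 33.4 CPM in control libraries. Replicate 3 of each group was high for both genes, and replicate 3 of each group also had the largest share of pericyte-like cells. The log2 fold changes were -0.33 for Acta2 (SE 0.55, adjusted p = 0.867) and -0.30 for Tagln (SE 0.60, adjusted p = 0.893). Of 12996 genes none was called (0.0%) by edgeR, 383 were by DESeq2, and 1638 had an unadjusted p under 0.05. In such sums, fewer cells of a type and less RNA per cell cannot be told apart. Pericyte markers tested in these sums were lower in Dsp_het for 15 of 15 (median -0.53), epicardial markers higher for 15 of 15 (median 1.47) and myofibroblast genes higher for 23 of 29 (median 0.81), none called. Epicardial-like cells were 8.16%, 4.39% and 8.82% of the cells of Dsp_het libraries and 1.88%, 3.03% and 3.29% of those of control libraries (with copies, 11.5%, 11.2% and 14.3% in Dsp_het and 8.16%, 7.50% and 7.95% in control libraries). The smallest p of the lists belonged to Fbln2 (0.71, adjusted p = 0.138) and Cilp (2.70, adjusted p = 0.138) among the myofibroblast genes (29 tested), Synpo2 (0.80) and Vcl (-0.34) among the contraction genes (44 tested, median 0.04) and Gata6 (0.86) and Mef2c (-0.37) among the regulators (14 tested, median 0.19).

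The genotype effect was also compared between fibroblast-like and pericyte-like cells, with library as a block. Acta2 and Myh11 did not pass the low-count filter in fibroblast-like cells and entered this fit through their counts in pericyte-like cells. Myh11 had no UMI in the Dsp_het fibroblast-like sums, so its fitted value has no firm size. For both genes the fit cannot decide whether the genotype effect differs between the classes, and no conclusion is drawn from it. In all 6 libraries, where 17 of 9171 genes were called (0.185%), the difference (fibroblast-like minus pericyte-like) was -2.12 for Acta2 (SE 0.41, edgeR adjusted p = 0.000319) and -4.74 for Myh11 (SE 1.06, adjusted p = 0.00667). In the planned fit of the 3 libraries with at least 20 cells of both classes, only 1 of them Dsp_het (48 of 9748 called, 0.492%), it was -2.10 for Acta2 (adjusted p = 0.0592) and -4.88 for Myh11 (adjusted p = 0.502), neither called. The call in 6 libraries rested on few cells. Without the richest cell of each class it was -1.42 for Acta2 (adjusted p = 0.264) and -3.70 for Myh11 (adjusted p = 0.55), and without control replicate 1 it was -1.13 for Acta2 (adjusted p = 0.956) and -3.48 for Myh11 (adjusted p = 0.658). The Acta2 call was also lost without Dsp_het replicate 2 (-1.48, adjusted p = 0.275) or Dsp_het replicate 3 (-1.69, adjusted p = 0.226), and the Myh11 call without Dsp_het replicate 3 (-3.71, adjusted p = 0.703). The planned fit of 3 libraries went the other way for Acta2. Without the richest cell of each class it gave -2.56 for Acta2, which then passed the threshold. In 6 libraries, Tagln (-0.64, SE 0.40) and the other contractile genes tested were not called. Markers of other cells moved with this result: in the fit of 6 libraries Rgs5 was called lower (-3.02, SE 0.41, adjusted p = 1.11e-09), and the 15 endothelial markers had a median of -0.81, with 14 negative and 1 called lower. Their part in the Acta2 and Myh11 values was not tested. Of the listed genes in the fit of 3, Gucy1a1 was called lower (-1.46, adjusted p = 5.78e-05) and Klf4 higher (1.23, adjusted p = 0.000975). Neither was called in 6 libraries, where Klf4 stood at 0.77 (adjusted p = 0.777).

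The share of cells with an Acta2 UMI was compared after thinning each cell to 1000 UMIs. In fibroblast-like cells it was 6 of 620, 0 of 116 and 0 of 91 in Dsp_het libraries and 2 of 118, 0 of 93 and 1 of 166 in control libraries. The mean was 0.323 ± 0.559% in Dsp_het libraries and 0.766 ± 0.859% in control libraries (SD, n = 3 each, two-sided exact permutation p = 0.7). After thinning, a count of 0 allows a share of cells with an Acta2 UMI of up to 2.59% and 3.3% in Dsp_het replicates 2 and 3 and 3.23% in control replicate 2. This limits cells with a UMI at that depth and not cells expressing the gene, since before thinning Dsp_het replicates 2 and 3 held 3 and 6 Acta2 UMIs. Before thinning it was 2.76% in Dsp_het libraries and 3.55% in control libraries. Endothelial-like cells, in which Acta2 was low, showed 0.0169 ± 0.0293% in Dsp_het libraries and 0.26 ± 0.187% in control libraries (exact p = 0.2). In pericyte-like cells the share was 7.79 ± 7.23% in Dsp_het libraries and 9.33 ± 3.07% in control libraries (exact p = 0.8), and in epicardial-like cells 2.19 ± 1.73% in Dsp_het libraries and 0.758 ± 1.31% in control libraries (exact p = 0.3). At least 2 of the 5 genes Acta2, Tagln, Myl9, Tpm2 and Cnn1 were found in 0.61 ± 0.531% of thinned fibroblast-like cells in Dsp_het libraries and 0.766 ± 0.859% in control libraries (exact p = 1.0). The smallest exact p that 3 against 3 libraries can give is 0.1, and some settings reached it. In epicardial-like cells these were the Acta2 share at 2000 UMIs, 4.53 ± 1.99% in Dsp_het libraries and 1.58 ± 1.38% in control libraries, and the share with at least 2 of the 5 genes before thinning, 9.65 ± 1.84% in Dsp_het libraries and 2.16 ± 2.15% in control libraries (exact p = 0.1 each). At 1000 UMIs the second share was 0.279 ± 0.483% in Dsp_het libraries and 0 in control libraries (exact p = 1.0). In endothelial-like cells at least 2 of the 5 genes were found in 0 thinned cells of Dsp_het libraries and 0.19 ± 0.0477% of those of control libraries (exact p = 0.1), with the same p at 2000 UMIs and with copies counted. Their Acta2 share also reached an exact p of 0.1 at 2000 UMIs and before thinning (0.0975% in Dsp_het libraries and 0.59% in control libraries). In pericyte-like cells the share with at least 2 of the 5 genes reached it only with copies counted, 21.9 ± 4.78% in Dsp_het libraries and 12.6 ± 3.16% in control libraries.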

How the data were processed

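Single-cell UMI counts of EGFP-positive heart cells came from 3 Dsp_het and 3 control libraries. The authors deposited 1 matrix of whole-number counts per gene and cell; the submitters' processing notes name Seurat and GRCm38, and no source used here gives the Seurat version, aligner or strand setting. Libraries held 7573157 to 17083660 UMIs. The 10 genes, the lists of related genes and the tests were chosen with earlier results of these data known.

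Each barcode was kept in the library holding at least 0.5 of its UMIs. Cells were clustered with scanpy 1.11.5 (2000 variable genes without the 10 genes, 30 components, 15 neighbours, Leiden resolution 1.0) and named from fixed markers. A class needed at least 3 of its markers at 0.25 of their highest cluster level. No doublet caller was run; leaving out cells with markers of another class stands in for it. UMIs were summed per library and class. Genotype was tested with edgeR 4.0.16 (TMM scaling, low-count filter with a minimum count of 10, quasi-likelihood test) in libraries with at least 20 cells, or 5 for the added fits of pericyte-like cells, with Benjamini-Hochberg adjustment over all genes tested and a threshold of 0.05. Shares of cells were compared by an exact permutation test over libraries. All scripts that test many genes were tested on simulated data. Of the 2-fold changes set there, 60% were recovered in all cells and 40% in pericyte-like cells. The share was 35% in fibroblast-like, 46% in epicardial-like and 49% in endothelial-like cells, so many 2-fold changes would be missed. Of 4-fold changes, 81% to 100% were recovered. False calls made up 3.25% to 7.86% of the calls, above 5% in fibroblast-like, pericyte-like and epicardial-like cells. The figures for pericyte-like cells came from 2428 genes, near the 2438 of the fit of 6 libraries and unlike the 6723 of the fit of 3. None of these figures covers the interaction of class and genotype.

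The text names the 10 genes in every comparison, up to 6 listed genes that passed (otherwise the 2 with the smallest p), a fixed set of control and marker genes, and the 8 genes with the most similar cluster profile. Alternatives were DESeq2 1.42.0, RLE size factors, no low-count filter, all kept barcodes, a stricter cell filter, resolution 2.0, the 10 genes in the clustering, cells with markers of another class left out, a replicate block, each library left out and other thinning depths. Fits without the cell richest in the 10 genes, and those with at least 5 cells, were chosen after seeing the data.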

Additional observations from a re-analysis of the deposited data

Results flagged for a closer look

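Acta2 and Myh11 passed the threshold in the interaction of class and genotype in 6 libraries, a fit added after the cells had been counted. Both genes missed the low-count filter in fibroblast-like cells and could be tested only through pericyte-like cells, and Myh11 had no UMI in Dsp_het fibroblast-like cells. For these genes the fit therefore cannot decide whether the genotype effect differs between the classes, and no conclusion is drawn from the calls. The difference of log2 fold changes, fibroblast-like minus pericyte-like cells, was -2.12 for Acta2 and -4.74 for Myh11 (edgeR quasi-likelihood adjusted p = 0.000319 for Acta2 and 0.00667 for Myh11). Over 10 fits, the reported one included, Acta2 passed in 6, with values between -3.43 and -1.13, and Myh11 in 7, with values between -5.75 and -3.48. Neither passed in the planned fit of 3 libraries, which held 1 Dsp_het library. In 6 libraries, neither passed without control replicate 1 or without the cell of each class richest in the 10 genes. Leaving the same cells out of the fit of 3 libraries moved Acta2 from -2.10 to -2.56, and it then passed the threshold. A single fibroblast-like cell held 72 of the 82 Acta2 UMIs and all 16 Myh11 UMIs of that class in control replicate 1. The pericyte marker Rgs5 was called in the same direction in the fit of 6 (-3.02, adjusted p = 1.11e-09), and the part of such markers in these values was not tested.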

How the results depend on the processing

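Alternative fold changes were tallied for members tested in the main fit. Only Acta2 and Tagln were taken in all cells, only Acta2 in pericyte-like cells of 3 libraries, and only Acta2 and Myh11 in the interaction. Of these values, 382 kept their direction and side of the threshold, 50 had the other sign, 7 gained and 7 lost the threshold. Calls outside the tally, such as Acta2 and Myh11 in fibroblast-like cells without the low-count filter, were not counted. Counts of genes called moved most. DESeq2 called 383 genes in all cells, 1 in pericyte-like cells of 3 libraries (edgeR 44), 3 in fibroblast-like cells (edgeR 1) and 11 in endothelial-like cells. Without the low-count filter the counts were 65 in all cells, 12 in pericyte-like cells of 6 libraries, 89 in fibroblast-like cells, 40 in epicardial-like cells and 165 in endothelial-like cells. With all kept barcodes they were 5 in all cells, 6 in pericyte-like cells (where all 6 libraries then held at least 20 cells, so that the number of libraries changed as well), 3 in fibroblast-like cells and 48 in the interaction of 6 libraries (otherwise 17). In fibroblast-like cells a stricter cell filter gave 2, leaving out cells with markers of another class 0, leaving out the cell richest in the 10 genes 2, and doing so without the low-count filter 88. Leaving out each library in turn gave 0 to 154 genes in all cells, 0 to 6 in pericyte-like cells of 6 libraries, 0 to 3 in fibroblast-like, 0 to 5 in epicardial-like and 0 to 11 in endothelial-like cells, and 7 to 30 in the interaction. The causes were not tested.

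Replicate numbers do not pair the libraries (same-number correlations of deviations between -0.17 and 0.11). With the replicate number as a block, 8 genes were called in fibroblast-like cells, 3 in epicardial-like, 11 in endothelial-like, and 0 in all cells and in pericyte-like cells of 6 libraries. No member's call changed under the block.

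Member fold changes near 0 took the other sign in these settings. In all cells Acta2 stood at 0.093 and Tagln at 0.31 without cells with markers of another class, at 0.0596 and 0.27 without the richest cell of each class, and at -0.75 to 0.35 and -0.84 to 0.42 with a library left out. With the 10 genes in the clustering, pericyte-like Acta2 stood at -0.23 in the 4 libraries that then held at least 20 cells and -0.48 in all 6, pericyte-like Tagln at -0.67, fibroblast-like Myl9 at 0.064 and fibroblast-like Tpm2 at 0.043. With all kept barcodes Myl9 stood at 0.0028 in pericyte-like and 0.0020 in fibroblast-like cells, and pericyte-like Tpm2 at 0.30. Pericyte-like Tpm2 stood at 0.015 with RLE size factors, 0.0495 without cells with markers of another class and 0.11 without the richest cell, and pericyte-like Myl9 at 0.12. Without the richest cell, fibroblast-like Tagln, Myl9 and Tpm2 stood at 0.26, 0.011 and 0.0003, and at 0.30, 0.028 and 0.014 without the low-count filter too. Epicardial-like Des stood at -0.30 with DESeq2. With a library left out, pericyte-like values in 6 libraries ran from -0.11 to 0.56 for Acta2, -0.17 to 0.82 for Tagln, -0.39 to 0.044 for Myl9 and -0.23 to 0.071 for Tpm2. Fibroblast-like values ran from -1.96 to 0.12 for Tagln, -0.71 to 0.19 for Myl9, -0.39 to 0.049 for Tpm2 and -0.31 to 0.087 for Smtn, epicardial-like values from -1.20 to 2.47 for Acta2, -0.85 to 1.86 for Des and -1.04 to 0.45 for Mylk, and endothelial-like Des from -0.89 to 0.21.

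Shares of cells, as Dsp_het minus control in percentage points, took the other sign for Acta2 in epicardial-like cells at 500 UMIs (-0.902), in fibroblast-like cells at 2000 UMIs (0.549) and in pericyte-like cells at 500 UMIs (1.29) and with all kept barcodes (5.54). With a library left out, the Acta2 difference ran from -0.826 to 0.0214 in fibroblast-like and -4.79 to 2.36 in pericyte-like cells. For at least 2 of 5 genes the difference was -0.587 in epicardial-like cells at 500 UMIs, 1.89 in fibroblast-like cells not thinned and -2.91 in pericyte-like cells at 2000 UMIs, and it ran from 0 to 0.418, -0.539 to 0.309 and -4.80 to 6.56 in these classes with a library left out. The few pericyte-like cells of Dsp_het replicates 1 and 2 (8 and 9) limit the comparison in that class.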
